A study of Mus musculus with 8 samples.

Results

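The 9 genes described here carry an interferon signal from the cell surface to the nucleus or hold it back. They were chosen by name as the rows of the deposited count table for the interferon receptor chains Ifnar1, Ifnar2, Ifngr1 and Ifngr2, the JAK kinases Jak1, Jak2 and Tyk2, and the suppressors Socs1 and Socs3. They are 9 of 24421 genes in the table, and all 9 were among the 17328 genes with enough counts to be tested. RNA was sequenced from L3 to L5 dorsal root ganglia (DRG) of wild-type (WT) C57BL/6J mice aged 8 weeks by the labels, male and with a wider age range by the study's methods, with 2 libraries per time point and RNA of 2 to 3 mice pooled in each. The 0d group consisted of naive, untreated mice. The 1d, 3d and 30d groups were killed 1, 3 and 30 days after 20 µL of 1% carrageenan, a seaweed polysaccharide that inflames tissue, had been injected into the left hind paw. No group received an injection without carrageenan, so the injection and the carrageenan cannot be told apart.

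Type I interferons bind a receptor made of IFNAR1 and IFNAR2, which hold the kinases TYK2 and JAK1, and interferon gamma binds a receptor made of IFNGR1 and IFNGR2, which hold JAK1 and JAK2. The activated kinases phosphorylate STAT proteins, which move to the nucleus as dimers or, with IRF9, as the complex ISGF3, and switch on interferon target genes. SOCS1 and SOCS3 are induced by cytokine signalling and then block it, SOCS1 mainly at the interferon receptors and SOCS3 mainly at receptors that share the chain gp130. Sensory neurons of the DRG are known to carry interferon receptors.

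None of the 9 members was called differentially expressed between any pair of time points. The receptor chains and kinases stayed within narrow limits, and their 95% intervals against 0d lay between 0.819-fold and 1.30-fold. Socs1 had the largest change of the 9 at 1d, 1.65-fold over 0d (95% interval 1.19 to 2.29), with an unadjusted p of 0.00511 and an adjusted p of 0.518 in edgeR's quasi-likelihood test. The 1d libraries were also those in which Stat2, Usp18 and 20 of 34 interferon target genes rose, while 0.346% of all tested genes were called. That target list was put together with results of these libraries known. Counts of the interferon genes themselves were at or near 0 in every library.

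Library totals ran from 44123208 to 73580338 counts. Replicate pools differed by more than sampling noise in every group, and p-values measure the spread between pools of mice. The labels give DRG neurons as the cell type, but RNA came from whole ganglia, and markers of satellite glia, Schwann cells, macrophages, endothelium and fibroblasts were present in every library beside 7 neuron markers that summed to between 9953 and 11058 CPM (counts scaled to library size by TMM). In such bulk samples, fewer cells of a type and less RNA per cell cannot be told apart. The summed level of 4 neutrophil markers was 36.6 and 77.4 CPM in the 0d libraries, 86.7 and 93.0 in those of 1d, 116 and 118 in those of 3d, and 183 and 79.5 in those of 30d. That of 7 macrophage markers stayed between 66.5 and 80.0 CPM, although its members differed, with Cx3cr1 at a mean of 10.9 CPM at 0d and lower at 3d (5.35 CPM, adjusted p 0.00794 by edgeR) and Itgam at 4.43 and 6.28 CPM at these times (not called). That of 4 Schwann cell markers was 10668 and 7795 CPM in the 0d libraries, 7567 to 8903 in those of 1d and 3d, and 5351 and 7580 in those of 30d. That of 4 erythroid markers ran from 135 to 269 CPM in 7 libraries and was 493 in the first 30d library, and that of 5 muscle markers ran from 14.2 CPM in the second 30d library to 120 in the first 0d library. Single markers also differed within other lists. At 3d against 0d, 2 of 7 neuron markers were called higher (0.219% of all genes called). From 3d to 30d, 1 of 7 was called lower (0.935%). At 1d against 0d, 1 of 4 fibroblast markers was called lower (0.346%). Of the satellite glia markers, Fabp7 had a mean of 162 CPM at 0d and 63.6 at 3d, and Glul 386 and 485 (neither called). No marker in these lists was at 0 in all libraries. Their part in the values of the 9 members was not tested.

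The interferon genes came first in the pathway and had almost no counts. Of 21 interferon genes in the table, Ifnb1, Ifna1, Ifna2, Ifna4, Ifna5, Ifna6, Ifna7, Ifna9, Ifna11, Ifna12, Ifna13, Ifna14, Ifna15, Ifna16, Ifnab, Ifne, Ifnk, Ifnz, Ifnl2 and Ifnl3 had 0 counts in all 8 libraries. At these totals a count of 0 allows up to 3 counts per library. Ifng, which encodes interferon gamma, had 3 counts in the second 3d library and 0 in the other 7. None of the 21 genes had enough counts to be tested, so a change in interferon RNA was not detectable in the ganglia at this depth.

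**Figure D1:**
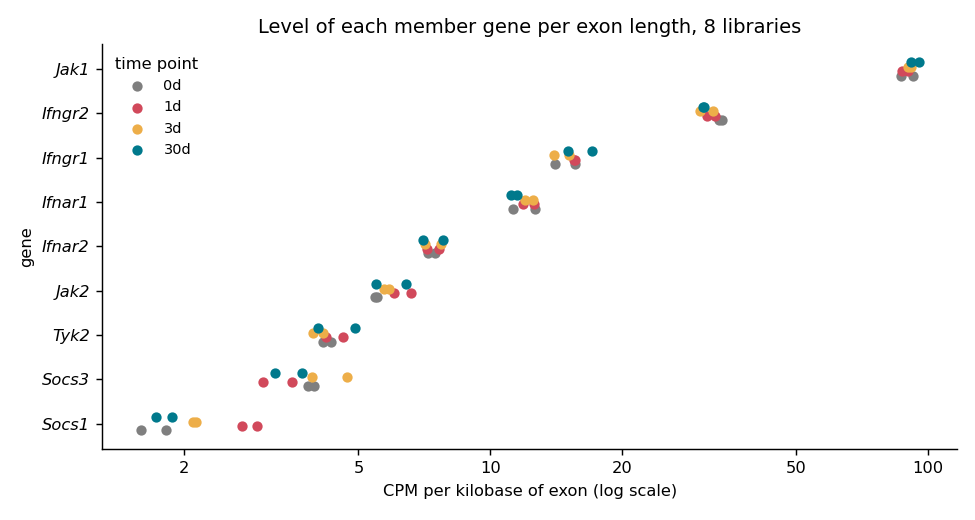
CPM per kilobase of exon (log scale) of the 9 member genes, 1 point per library, coloured by time point. Jak1 lies highest, between 86.8 and 95.2, Socs1 lowest, between 1.59 and 2.93, and among neighbours in the order only the ranges of Tyk2 and Socs3 overlap.

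The levels of the members were compared per length, as CPM per kilobase of exon averaged over the 8 libraries. Jak1 was the most abundant at 90.5 ± 2.67 (SD over 8 libraries), above 95.6% of tested genes. The receptor chains followed, with Ifngr2 at 31.8 ± 1.37, Ifngr1 at 15.3 ± 0.980, Ifnar1 at 11.95 ± 0.601 and Ifnar2 at 7.39 ± 0.302. Jak2 stood at 5.88 ± 0.430, Tyk2 at 4.29 ± 0.321, Socs3 at 3.74 ± 0.517 and Socs1 at 2.11 ± 0.475. Only Tyk2 and Socs3 overlapped as neighbours in this order, with ranges of 3.93 to 4.91 and 3.02 to 4.72. The kinases were unequal in level, and per length Jak1 exceeded Jak2 by 13.6 to 16.9 times and Tyk2 by 18.7 to 23.5 times in single libraries. Within the receptors, Ifnar1 was at 1.47 to 1.76 times the level of its partner Ifnar2, and Ifngr2 at 1.79 to 2.41 times that of Ifngr1. The order of the receptor chains and the level of Socs1 depended on the length used, since the summed exons of Ifnar1, Ifngr2 and Socs1 are 7013, 2070 and 1339 bases and their longest GENCODE transcripts 3909, 3708 and 2908 bases. Per kilobase of longest transcript, a choice added after the data were seen, Ifnar1 stood at 21.4, above Ifngr2 at 17.8 and Ifngr1 at 15.2, and Socs1 at 0.971. The ratio of Ifnar1 to Ifnar2 was then 2.53 to 3.03 and that of Ifngr2 to Ifngr1 1.01 to 1.35, while Jak1 stayed highest at 97.8. The SD as a share of the mean over the 8 libraries was between 2.95% and 7.47% for the receptor chains and kinases, 13.9% for Socs3 and 22.5% for Socs1.

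**Figure D2:**
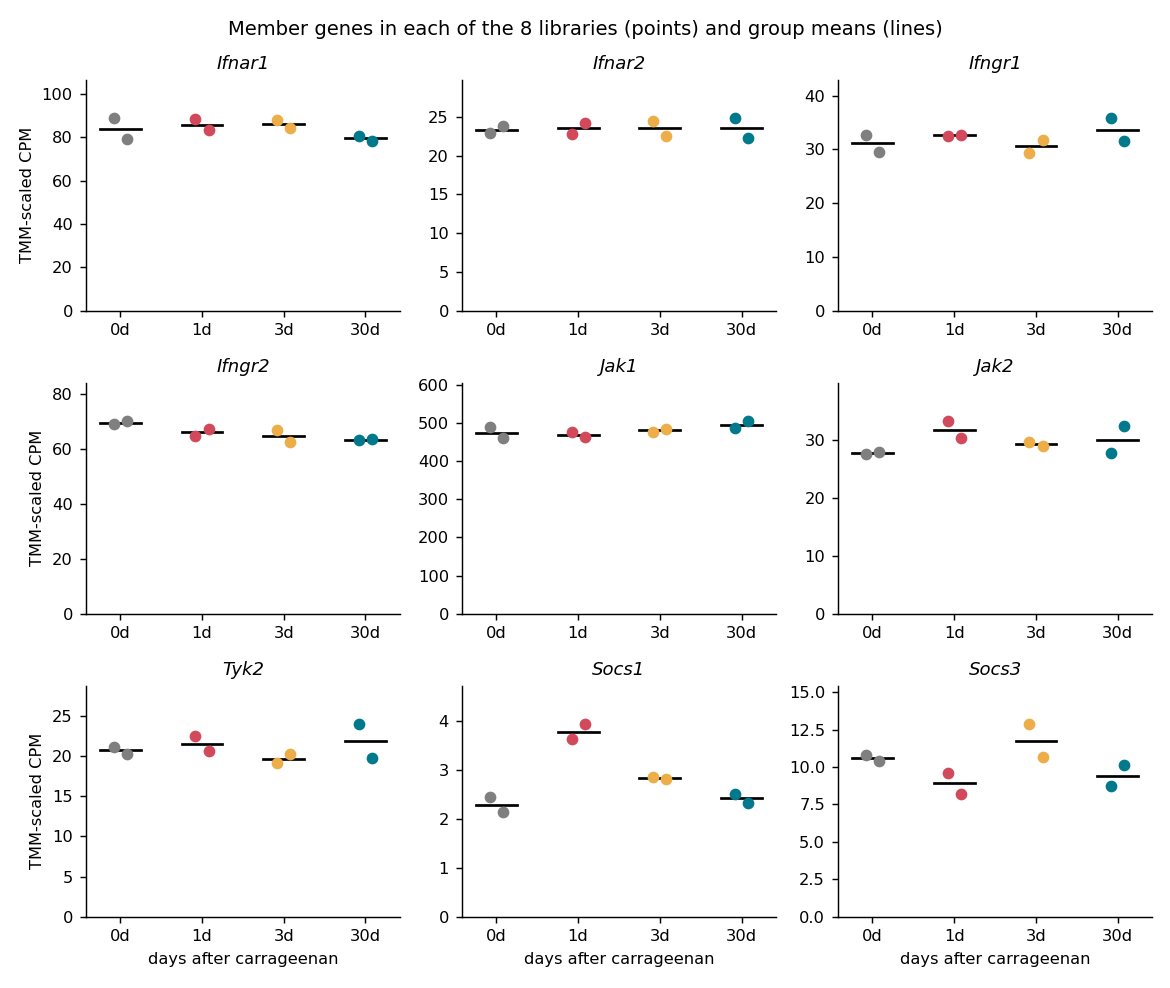
TMM-scaled CPM of each member gene (axes start at 0) at 0d, 1d, 3d and 30d, with 1 point per library and a line at the mean of the 2. The receptor chains and kinases are nearly level over time, Socs1 is at 3.62 and 3.92 CPM at 1d and at most 2.85 elsewhere, and Socs3 is at 9.60 and 8.23 CPM at 1d.

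Ifnar1 encodes the type I receptor chain that holds TYK2. It had 88.8 and 79.0 CPM in the 0d libraries, 88.3 and 83.2 in those of 1d, 87.8 and 84.4 in those of 3d, and 80.7 and 78.3 in those of 30d. The 0d libraries spanned the whole range of the 1d, 3d and first 30d libraries, so the time points could not be separated from naive ganglia. Its log2 fold change against 0d was 0.03 at 1d (95% interval -0.10 to 0.16), 0.04 at 3d and -0.08 at 30d. Each of these values changed sign without 1 of the 0d libraries: without the first they were 0.12, 0.12 and 0.01, without the second -0.05, -0.04 and -0.16, and without the first 1d library the 1d value was -0.01. Ifnar2, the chain that holds JAK1, lay between 22.3 and 24.8 CPM in all libraries. Its 4 group means differed by at most 1.01-fold, less than those of the other 8 members. Ifnar1, Ifnar2 and Ifngr2 lie near each other on mouse chromosome 16 in mm10, Ifnar2 at chr16:91372783-91405587, Ifnar1 at chr16:91485215-91510522 and Ifngr2 at chr16:91547094-91564007, all on the plus strand.

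Ifngr1, on chromosome 10, encodes the chain that binds interferon gamma and JAK1. Its levels ran from 29.3 to 35.8 CPM, and 1d, 3d and 30d each overlapped with the 0d values of 32.8 and 29.5. The highest value was in the first 30d library, which stood apart in the erythroid markers, and the log2 fold change at 30d of 0.11 (SE 0.08) was 0.02 without it. Ifngr2, the partner chain that holds JAK2, had 69.0 and 70.0 CPM in the 0d libraries, 64.6 and 67.4 in those of 1d, 66.7 and 62.4 in those of 3d, and 63.2 and 63.6 in those of 30d. Both 0d libraries were above all 6 later ones. The difference was small, with log2 fold changes against 0d of -0.08 at 1d, -0.11 at 3d and -0.13 at 30d (SE 0.06 each), and the 3d value was -0.06 without the second 3d library. At 30d the unadjusted p was 0.0305 and the adjusted p 0.355 (edgeR).

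Jak1, the kinase shared by both receptors, had 489 and 460 CPM in the 0d libraries, 476 and 463 in those of 1d, 477 and 483 in those of 3d, and 485 and 504 in those of 30d. The 1d and 3d values fell within the range of the naive libraries, and the 30d values overlapped with it. Its changes were measured with the smallest error of the 9, an SE of 0.04, and the 95% interval at 1d ran from -0.10 to 0.07. Counting ignored strand, and 7.49% of the exon bases of Jak1 are shared with Raver2 on the opposite strand, so part of its counts may belong to that gene.

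Jak2, the kinase of the interferon gamma receptor and of many cytokine and hormone receptors, had 27.5 and 27.9 CPM in the 0d libraries, 33.3 and 30.4 in those of 1d, 29.6 and 28.9 in those of 3d, and 27.7 and 32.4 in those of 30d. Both 1d and both 3d libraries were above the 0d ones, while 30d overlapped with 0d. The log2 fold change at 1d was 0.20 (SE 0.09, unadjusted p 0.0348, adjusted p 1.00 by edgeR), and 0.13 without the first 1d library. Tyk2, the kinase of the type I receptor, lay between 19.2 and 23.9 CPM. The highest value was again in the first 30d library, and its log2 fold change at 30d, 0.08 with an SE of 0.10, turned to -0.07 without that library.

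**Figure D3:**
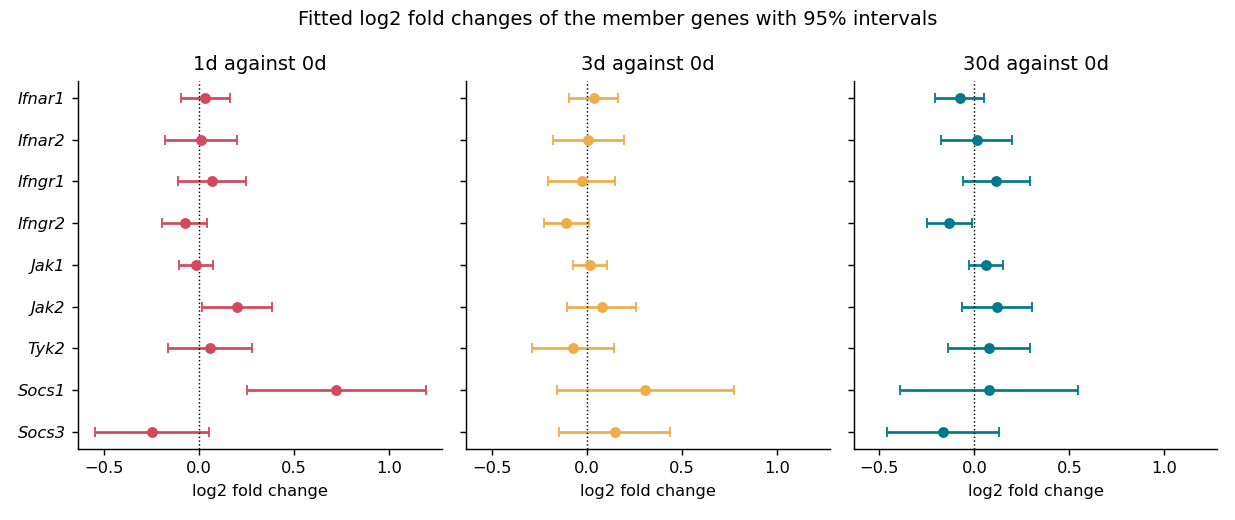
Log2 fold change of each member gene at 1d, 3d and 30d against 0d (x axis), as points with 95% intervals from the quasi-likelihood fit. The receptor chains and kinases have narrow intervals near 0, and Socs1 at 1d, at 0.72 with an interval of 0.25 to 1.19, lies farthest from 0.

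SOCS1 binds the JAK kinases and inhibits them directly. Its gene lies at chr16:10783809-10785536 on the minus strand of mm10. Socs1 had 2.44 and 2.14 CPM in the 0d libraries, 3.62 and 3.92 in those of 1d, 2.85 and 2.80 in those of 3d, and 2.51 and 2.31 in those of 30d. Both 1d libraries were above all 6 others, the 3d libraries lay between them and the rest, and 30d overlapped with 0d. With 129 to 205 counts per library, Socs1 was the least counted of the members and had the widest error. The log2 fold change against 0d was 0.72 at 1d (SE 0.22), 0.31 at 3d (SE 0.22) and 0.08 at 30d (SE 0.22). The 1d value ranked 170 of 17328 genes by p. It remained between 0.63 and 0.82 with any 1 library left out, with adjusted p-values between 0.225 and 1.00 over all alternatives. From 1d to 30d Socs1 differed by -0.65 (95% interval -1.11 to -0.18, unadjusted p 0.00985, adjusted p 0.267 by edgeR).

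SOCS3 acts mainly at receptors that contain gp130, such as that of interleukin-6, and its gene lies at chr11:117966087-117969366 on the minus strand. Socs3 had 10.8 and 10.4 CPM in the 0d libraries, 9.60 and 8.23 in those of 1d, 12.8 and 10.6 in those of 3d, and 8.76 and 10.1 in those of 30d. Both 1d and both 30d libraries were below the 0d ones, and 3d overlapped with 0d. The log2 fold change was -0.25 at 1d (SE 0.14, 95% interval -0.55 to 0.05), 0.15 at 3d and -0.17 at 30d. These values rested on single libraries, since they were -0.14 without the second 1d library, 0.007 without the first and 0.28 without the second 3d library, and -0.07 without the first and -0.28 without the second 30d library. Between 1d and 3d it differed by 0.40 (unadjusted p 0.0125, adjusted p 0.739 by edgeR), and by 0.25 without the first 3d library. From 3d to 30d the difference was -0.31 (unadjusted p 0.0369, adjusted p 0.346), and -0.17 without the first 3d library. The per-length ratio of Socs3 to Socs1 was 2.17 and 2.40 in the 0d libraries, 1.30 and 1.03 in those of 1d, 2.21 and 1.87 in those of 3d, and 1.72 and 2.15 in those of 30d, so it was lower in both 1d libraries than in the other 6. Per kilobase of longest transcript this ratio was 3.02 and 2.39 at 1d and between 3.98 and 5.57 in the other 6.

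The promoters of the members were searched for the sequences through which STAT proteins and ISGF3 bind DNA, in the 250 bases before each transcription start in RefSeq on GRCm38.p6. The motifs were the gamma-activated site (GAS), TTCNNNGAA, which reads the same on both strands, and the interferon-stimulated response element (ISRE), GAAA and GAAA with 2 bases of any kind between them, searched on both strands. A start was found for 9 of 9 members. Socs1 held 2 ISRE matches that overlap, GAAAGAGAAA at 83 and GAAACCGAAA at 77 bases before the start. Ifnar2 held a GAS match, TTCCTGGAA at 214 bases, and Socs3 another, TTCTTAGAA at 154 bases. Of all 32851 promoters, 7.02% held a GAS match, 2.98% an ISRE match and 0.18% at least 2 ISRE matches. A match describes the letters and not a bound site, and the windows of the other 6 members hold neither set of letters. The 3 windows with a match are printed 5′ to 3′ on the strand of the gene, with the matches in capitals, so that the pair in Socs1 can be set beside the single sites in Socs3 and Ifnar2. They lie at chr16:10785537-10785786 (minus strand) for Socs1, chr11:117969367-117969616 (minus strand) for Socs3 and chr16:91372533-91372782 (plus strand) for Ifnar2.
Socs1: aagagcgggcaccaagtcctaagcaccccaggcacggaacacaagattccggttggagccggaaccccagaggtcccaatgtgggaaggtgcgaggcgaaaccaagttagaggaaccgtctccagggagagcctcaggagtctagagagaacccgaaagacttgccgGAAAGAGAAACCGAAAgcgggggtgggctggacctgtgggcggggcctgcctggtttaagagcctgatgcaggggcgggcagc
Socs3: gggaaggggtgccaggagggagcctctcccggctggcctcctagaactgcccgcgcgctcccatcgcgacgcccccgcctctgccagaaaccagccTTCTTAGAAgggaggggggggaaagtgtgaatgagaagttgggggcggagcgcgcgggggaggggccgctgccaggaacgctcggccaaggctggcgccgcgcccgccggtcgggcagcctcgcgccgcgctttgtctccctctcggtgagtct
Ifnar2: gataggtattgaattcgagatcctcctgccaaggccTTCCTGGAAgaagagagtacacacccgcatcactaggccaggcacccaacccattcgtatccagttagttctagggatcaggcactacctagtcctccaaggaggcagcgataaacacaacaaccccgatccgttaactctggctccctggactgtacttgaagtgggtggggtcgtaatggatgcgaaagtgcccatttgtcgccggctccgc

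At 1d against 0d, 0 of the 9 members were called at an adjusted p under 0.05, and 0.346% of all tested genes were. At an unadjusted p under 0.05, edgeR and DESeq2 each gave Socs1 and Jak2, 2 of 9, and limma-voom gave 1, against 4.47% of all genes in edgeR. The libraries of 4 members did not overlap between 1d and 0d, with Socs1 and Jak2 higher and Ifngr2 and Socs3 lower, and this held for 31.9% of all tested genes. The median log2 fold change of the 9 was 0.03 beside -0.003 for all tested genes, and their median absolute change was 0.07 beside 0.08.

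At 3d against 0d, 0 members were called (0.219% of all genes), and the number at an unadjusted p under 0.05 was 0 in edgeR, DESeq2 and limma-voom, beside 5.94% of all genes in edgeR. The 4 members whose libraries did not overlap were Socs1 and Jak2, higher, and Ifngr2 and Tyk2, lower, beside 39.5% of all genes. At 30d against 0d, 0 members were called (0.0231% of all genes), and Ifngr2 was the only 1 under an unadjusted 0.05 in each of the 3 tools, beside 12.3% of all genes in edgeR. Ifngr2 and Socs3, both lower, were the 2 without overlap, beside 39.6%. The 1d, 3d and 30d comparisons share the same 0d libraries and are therefore not independent.

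Between the later time points, 0 members were called from 1d to 3d (0.289% of all genes), from 3d to 30d (0.935%) or from 1d to 30d (0.571%). Each of these comparisons had 1 member under an unadjusted 0.05 in edgeR, DESeq2 and limma-voom alike, Socs3 in the first and the second and Socs1 in the last, beside 4.24%, 13% and 11.7% of all genes in edgeR. Libraries did not overlap for 6 members from 1d to 3d, beside 37.6% of all genes, for 4 from 3d to 30d, beside 46.4%, and for 4 from 1d to 30d, beside 40% of all genes. From 1d to 3d, Socs1, Jak2, Tyk2 and Ifngr1 were lower and Socs3 and Jak1 higher among the 6.

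**Figure D4:**
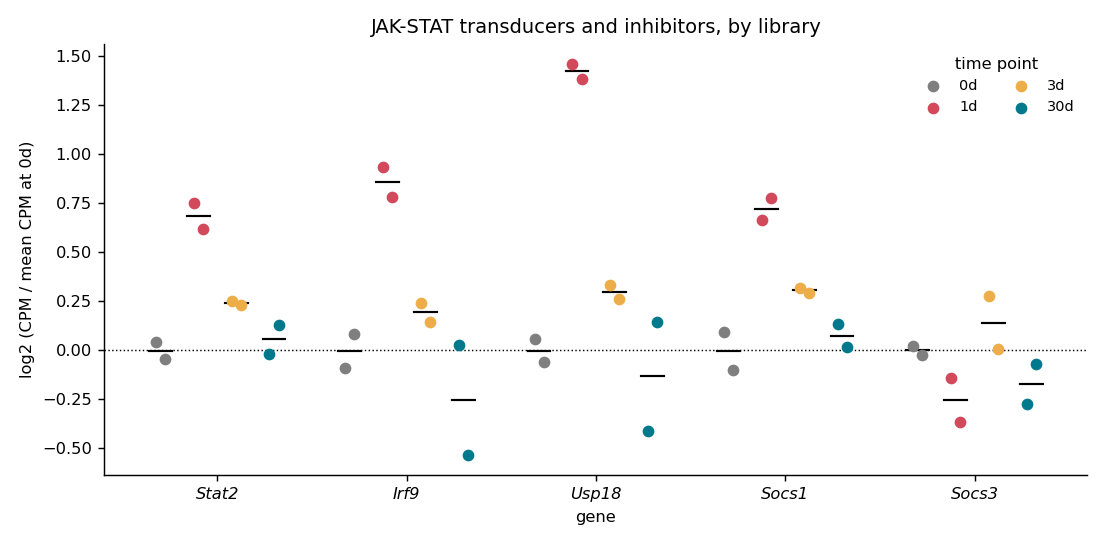
Level of Stat2, Irf9, Usp18, Socs1 and Socs3 in each library as log2 of CPM over the mean CPM at 0d, with 1 point per library and a line at the mean of the 2 points. In the first 4 genes both 1d libraries are above all others, and in Socs3 both are below 0.

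Of 63 other genes of the pathway, 41 were tested. At 1d, 2 of these 41 were called, both higher, beside 0.346% of all tested genes. Stat2, a transducer of type I signalling, had 77.5 and 72.9 CPM at 0d and 127 and 116 at 1d, then 89.6 and 88.3 in the 3d libraries and 74.3 and 82.2 in those of 30d. It rose 1.61-fold at 1d (log2 0.69, SE 0.06, adjusted p 4.30e-05 by edgeR). Usp18, which encodes an inhibitor that binds IFNAR2 and displaces JAK1, went from 4.21 and 3.88 CPM at 0d to 11.2 and 10.6 at 1d, a 2.68-fold rise (log2 1.42, SE 0.18, adjusted p 0.00133). Irf9, the DNA-binding part of ISGF3, was at 18.5 and 20.9 CPM at 0d and 37.6 and 33.9 at 1d, with a log2 fold change of 0.86 (SE 0.16) and an adjusted p of 0.0897, so it was not called. The promoter of Stat2 held an ISRE match on the reverse strand, TTTCAGTTTC at 222 bases before its start, and the windows of Irf9 held no match. For Usp18 no start was found under this symbol, so its promoter was not searched.

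Both genes returned towards 0d by 3d. From 1d to 3d, 2 of the 41 were called, beside 0.289% of all genes. Both were lower, and they were Stat2 (log2 -0.45) and Usp18 (-1.12). Without the second 1d library 1 of them passed the threshold (Stat2), and without the first 1d library or either 3d library 0 did. From 1d to 30d, 3 were lower, Stat2 (-0.63), Irf9 (-1.09) and Usp18 (-1.53), although Irf9 did not pass without either 1d or either 3d library, or with the compared groups alone. Against 0d, 0 of the 41 were called at 3d and 0 at 30d, with 6 and 3 at an unadjusted p under 0.05 in edgeR, beside 5.94% and 12.3% of all genes. DESeq2 called 1 at 3d and 0 at 30d, limma-voom 0 at both. From 3d to 30d edgeR called 0 of 41, beside 0.935% of all genes, with 10 at an unadjusted p under 0.05, beside 13%, and DESeq2 and limma-voom called 1 each.

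Beside Usp18, no other inhibitor was called. Of the 6 other SOCS family genes, Cish, Socs2, Socs4, Socs5, Socs6 and Socs7, 0 were called in any of the 6 comparisons, and their log2 fold changes at 1d lay between -0.21 and 0.11. The number at an unadjusted p under 0.05 was 0 at 1d, 2 from 1d to 3d (Cish and Socs7) and 1 from 3d to 30d (Cish). Of all genes, 4.47%, 4.24% and 13% were under it in these comparisons in edgeR. Of 10 further inhibitors of JAK and STAT proteins, among them phosphatases and PIAS proteins, Usp18 was the only 1 called. At 1d, 2 of these 10 had an unadjusted p under 0.05, beside 4.47% of all genes in edgeR.

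Interferon target genes were read beside the members, in a list of 24 type I and 10 type II targets that was put together with results of these libraries known. At 1d, 17 of the 24 and 3 of the 10 rose, and 0 fell, while 0.346% of all tested genes were called. The count of 20 was 12 without the first 1d library. Isg15, a ubiquitin-like protein, had 4.14 and 4.11 CPM at 0d and 17.7 and 16.2 at 1d (4.11-fold), Ifit1, which binds foreign RNA, rose 3.21-fold and Oasl2, a relative of the RNA-sensing oligoadenylate synthetases, 2.04-fold (adjusted p 3.39e-06 for each by edgeR). At 3d, 3 of the 34 were higher than at 0d, a count that fell to 1 without the first 0d or the second 3d library and to 0 without the first 3d library. At 30d edgeR called 0, with 6 of 34 at an unadjusted p under 0.05, beside 12.3% of all genes, and DESeq2 and limma-voom also called 0. From 1d to 3d 19 were lower, but 5 without the first 1d library and 3 and 4 without the first and the second 3d library. From 3d to 30d 6 were lower, and 2 without either 3d library, while from 1d to 30d 23 were lower.

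For each member, tested genes whose log2 CPM over the 8 libraries was most like its own were taken as a description, with Pearson's r over 8 libraries that share depth and handling. For Socs1 these were Slc43a2 (r = 0.98), which encodes an amino acid transporter, and Pml (r = 0.97), the core protein of nuclear PML bodies. Jak1 ran closest to Cdc42bpa (0.98) and to Scn8a (0.97), which encodes a neuronal sodium channel, and Ifngr1 to Nupr1 (0.98) and the macrophage lectin Clec10a (0.96). Socs3 was nearest to Zbtb41 and Lnx2 (0.94 each), Tyk2 to Podxl (0.95), and Jak2 to Saxo2 (0.94) and Asb7 (0.89). Ifnar1 was nearest to Mir8102 (0.97) and Gsg1 (0.95), both under 0.3 CPM. Ifnar2 was nearest to Tmem184b (0.97) and Gm10872 (0.94), the latter at 0.111 CPM, and Ifngr2 to Tceal8 (0.97) and Tecr (0.94). Among the members themselves the highest r was 0.85, between Ifngr1 and Tyk2, whose highest value was in the same 30d library, and the lowest was -0.72, between Ifngr1 and Socs3. Between the chains of one receptor, r was -0.07 for Ifnar1 and Ifnar2 and -0.45 for Ifngr1 and Ifngr2. The group means of Ifnar1 differed by at most 1.08-fold and those of Ifnar2 by 1.01-fold. With so little change over time, r cannot show whether the chains are regulated together.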

How the data were processed

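RNA of pooled DRGs was sequenced at 0d, 1d, 3d and 30d, 2 libraries each. Per the labels and the study's methods, the authors used cutadapt 2.10 for trimming, STAR 2.7.5a for alignment to mm10 and featureCounts 2.0.1 for counting per gene, without strand. Read pairs over several genes were counted for each, and multi-mapping reads were not counted. The deposited values are raw counts per gene, beside an exon length in bases that was used for levels per kilobase. All count columns were matched to samples by name.

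Counts were analysed in R 4.3.3 with edgeR 4.0.16. Genes passing filterByExpr (17328 of 24421) were scaled by TMM and tested in 1 quasi-likelihood fit of all 8 libraries with robust estimation, in 6 comparisons, with p-values adjusted over all tested genes by the Benjamini-Hochberg method. A gene was called at an adjusted p under 0.05, and "rose" and "fell" are used of called genes. Standard errors were derived from the log2 fold change and its F statistic. The filter removed 7093 genes, which made up no more than 0.012% of any library. The scripts were tested on simulated counts. Alternatives were other normalizations and filters, DESeq2 1.42.0, limma-voom (limma 3.58.1), other dispersion settings, a replicate block, fits of the compared groups alone, and fits without 1 library.

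The members, the gene lists and the tests were chosen with earlier results of these data known. Named are the 9 members, pathway genes called in any comparison or at 0 counts in all libraries, 3 target genes with the smallest p at 1d, and for each member the 2 genes most like it, and results for some genes are not reported here. Other names were chosen after their values were seen, and the other SOCS genes are named as a whole list. Promoter sequences are RefSeq, GRCm38.p6, and transcript words of 50 bases were compared in GENCODE vM21. Of the members, Ifnar2 shared 8.87% of its words with Gm21970, a model overlapping it that was not used in the counts, Ifnar1 1.32% with Phkg1 and Ifngr2 0.109%, and the other 6 shared 0%.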

Additional observations from a re-analysis of the deposited data

Results flagged for a closer look

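The change from the same 0d libraries differed between time points for 3 genes of the pathway, by a test of the difference itself (edgeR's quasi-likelihood test, Benjamini-Hochberg adjusted). Stat2 was lower at 3d than at 1d by a log2 fold change of -0.45 (adjusted p 0.00418) and Usp18 by -1.12 (adjusted p 0.0140). At 30d against 1d the differences were -0.63 for Stat2 (adjusted p 0.000101), -1.09 for Irf9 (adjusted p 0.0199) and -1.53 for Usp18 (adjusted p 0.000705). All 3 were lower in both 30d libraries and in both 3d libraries than in both 1d libraries. From 1d to 3d Irf9 was not called, and Stat2 and Usp18 were. The calls from 1d to 3d were lost for both genes without the first 1d library or either 3d library, and for Usp18 also without the second 1d library. That of Irf9 from 1d to 30d was lost without either 1d or either 3d library and with the compared groups alone. No such difference between time points was called for any of the 9 members.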

How the results depend on the processing

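Under the 11 other settings and the 8 fits without 1 library, 0 of the 9 members were called in any of the 6 comparisons. Of 1026 member log2 fold changes recomputed, 993 were within 1 SE of the reported value, and 41 had the opposite sign, 0 of them among changes of at least 0.2. No scaling moved the median of all genes by more than 0.1.

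Counts of other pathway genes moved as follows. At 3d against 0d, 1 was called with no filter (Stat2), with DESeq2 and with the compared groups alone (Cntf in both), in place of 0. From 1d to 3d, DESeq2 and the compared groups alone each gave 4 in place of 2, and from 3d to 30d, no filter, DESeq2, limma-voom and no robust estimation each gave 1 in place of 0. Irf9 at 1d passed the threshold in 4 of 11 settings. Counts of target genes became 5 in place of 3 at 3d and 1 in place of 0 at 30d with no filter, 29 in place of 19 from 1d to 3d with the compared groups alone, and 3 in place of 6 from 3d to 30d with total counts, limma-voom, no robust estimation or the compared groups alone. The causes were not tested.

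Leaving out each library gave 12 to 25 target genes at 1d, 0 to 4 at 3d, 3 to 23 from 1d to 3d and 2 to 9 from 3d to 30d. It gave 0 to 1 other pathway genes at 3d and at 30d, 0 to 4 from 1d to 3d and 0 to 3 from 3d to 30d. The lone library of a group was then assumed to vary like the other groups.

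Over all genes, the count called ranged over the settings from 49 to 110 at 1d (60 reported), 20 to 121 at 3d (38), 0 to 184 at 30d (4), 43 to 260 from 1d to 3d (50), 92 to 378 from 3d to 30d (162) and 74 to 229 from 1d to 30d (99). Without 1 library the ranges were 26 to 111, 1 to 121, 1 to 202, 5 to 117, 12 to 525 and 51 to 359.

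Same-numbered libraries did not deviate together (r between -0.01 and 0.04 over the 6 pairs of groups), so the replicate numbers were not taken to pair the samples. With the replicate block, 0 members, 2 other pathway genes and 24 target genes were called at 1d, and the count of all genes was 73 at 1d and 69 at 30d.

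Depth limits Socs1 most, at 129 to 205 counts per library, and the interferon genes, which could not be tested. With 2 pools per group, the 95% interval of Socs1 at 1d spans 1.19-fold to 2.29-fold, so its miss of the threshold does not show that it did not change.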

Other observations

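Socs3 is best known as the feedback inhibitor of cytokines that signal through gp130, and that branch was read as well. Of 8 gp130 cytokine genes 7 were tested, and of 8 receptor genes 8 were. None of these 15 genes was called in any of the 6 comparisons by edgeR with all 8 libraries, the filter and robust estimation, with 0 at an unadjusted p under 0.05 at 1d. At 3d against 0d the unadjusted p was under 0.05 for 3 of the 15, beside 5.94% of all genes. They were Cntf, a neurotrophic cytokine of Schwann cells (log2 0.61, unadjusted p 0.00370, adjusted p 0.363), the interleukin-6 receptor Il6ra (log2 0.67, adjusted p 0.298) and Lifr (log2 0.13, adjusted p 0.513). From 3d to 30d, 5 of the 15 had an unadjusted p under 0.05, 2 cytokines and 3 receptors, beside 13% of all genes. DESeq2 called Cntf at 3d against 0d, from 1d to 3d and from 3d to 30d, and limma-voom called it in the last of these. In edgeR, Cntf was called with the compared groups alone at 3d against 0d and from 1d to 3d, and without robust estimation from 3d to 30d, where Il11ra1, a receptor for interleukin-11, was called with no filter. Without either 30d library, Cntf was called at 3d against 0d, from 1d to 3d and from 3d to 30d, and without the second also from 1d to 30d. Il11ra1 was called from 3d to 30d without the first 30d library. Osm, which encodes oncostatin M, was not tested and had at most 12 counts in a library. These names were chosen after their values were seen.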
